A study of Homo sapiens with 6 samples.

Results

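The small nucleolar RNAs of the SNORA series and the small Cajal body RNAs of the SCARNA series were followed in A2780, a human ovarian cancer cell line. They were taken as every probe set, the group of array probes summarised to 1 value, whose annotation gave exactly 1 symbol made of SNORA or SCARNA and a number. That rule used no measured value and gave 83 of the 33252 probe sets, of which 64 read 61 SNORA symbols and 19 read 16 SCARNA symbols. By gene this is 77 of the 18417 genes that have a probe set of exactly 1 symbol. A further 28 probe sets that carry such a symbol beside others were left out. The values of 4 of the 83 are identical to those of another, a pair each for SNORA10 and SNORA15, so 83 overstates the number of separate measurements.

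H/ACA RNAs are short nuclear RNAs that pair with a target RNA and direct the conversion of a chosen uridine to pseudouridine by the enzyme DKC1, which they carry together with NHP2, NOP10 and GAR1. SNORA RNAs act in the nucleolus, mostly on ribosomal RNA, and SCARNA RNAs act in Cajal bodies on the small nuclear RNAs of the spliceosome. In human cells most of them lie in introns of other genes, the host genes, and are released when the spliced intron is trimmed. The SCARNA name covers more than the H/ACA class: SCARNA7, SCARNA9 and SCARNA17 are of the C/D type, which directs ribose methylation, and SCARNA5, SCARNA6, SCARNA10 and SCARNA12 carry both kinds of domain.

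All cells were infected with lentivirus, had the virus medium replaced after 24 hours and were harvested at 96 hours. The BMI1 set held 2 arrays, each of cells given a different short hairpin RNA against the Polycomb protein BMI1, and 1 array of cells given the BMI1 control. The FAL-1 set held 2 arrays, each with a hairpin against the long non-coding RNA FAL-1, and 1 array of the FAL-1 control. The labels speak of a control shRNA and give no sequence for it or for the hairpins. Where 3 values of a set are given, they stand for hairpin 1, hairpin 2 and control. Separate cultures are not described, so p-values measure only the spread between these arrays, which may be technical, and the number of arrays limits the precision. In the comparison of the sets, 2 hairpins and a control count as the 3 arrays of a set. The spread there also holds any knockdown effect, and these arrays are not replicates of 1 condition. Set, target, control virus and any batch of culture or hybridisation cannot be told apart.

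Values are on a log2 scale, and each array had a median between 6.94 and 7.09 over all probe sets. The medians were 7.05, 7.09 and 7.05 in the BMI1 set, all above those of the FAL-1 set, 6.94, 7.02 and 6.96. The probe set shared by BMI1 and the readthrough transcript COMMD3-BMI1 read 8.73 and 9.99 with the BMI1 hairpins, 26.8% and 64.0% of the control level, against 10.64 in the BMI1 control. No probe set used here carries the symbol of FAL-1, FALEC, which leaves the FAL-1 knockdown unchecked. Of the markers of ovarian and epithelial cells, KRT8 and KRT18 averaged 9.77 and 9.06, whereas PAX8 (6.77), WT1 (6.88), EPCAM (6.32), CDH1 (5.89) and MUC16 (6.02) averaged below the median of all probe sets, 7.03. Averages of the 8 measured markers of other cells ran between 5.06 for PTPRC and 10.73 for COL3A1.

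Among the small RNAs, members passed the test between the sets but not between hairpins and controls. SNORA38B was lower in the BMI1 set, with a log2 difference of -2.09, and SNORA70B, SNORA65 and SNORA75 were higher there by 1.25, 1.01 and 0.99. In the fit of 3 BMI1 arrays against 3 FAL-1 arrays, limma's adjusted p was under 0.05 for 19 of the 83 members (22.9%), with 12 higher and 7 lower, against 6.93% of all probe sets. In bulk samples such as these, fewer cells of a kind and less RNA per cell cannot be told apart. The background by direction was 5.66% higher and 1.28% lower. The unadjusted p was under 0.05 for 39 members (47.0%), against 19.9% of all probe sets. The 3 arrays of one set all lay beyond those of the other for 40 members (48.2%), against 26.1% of all probe sets. Of these, 23 (background 16.0%) were higher in the BMI1 set and 17 (10.1%) lower, while 18 differed by 1.5-fold or more (21.7%, against 6.81% of all probe sets) and 4 by 2-fold or more (4.82%, against 2.38%). The size of the difference had a median of 0.27 over members, against 0.12 over all probe sets, while the signed median was 0.02 over members and 0.01 over all.

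**Figure D1:**
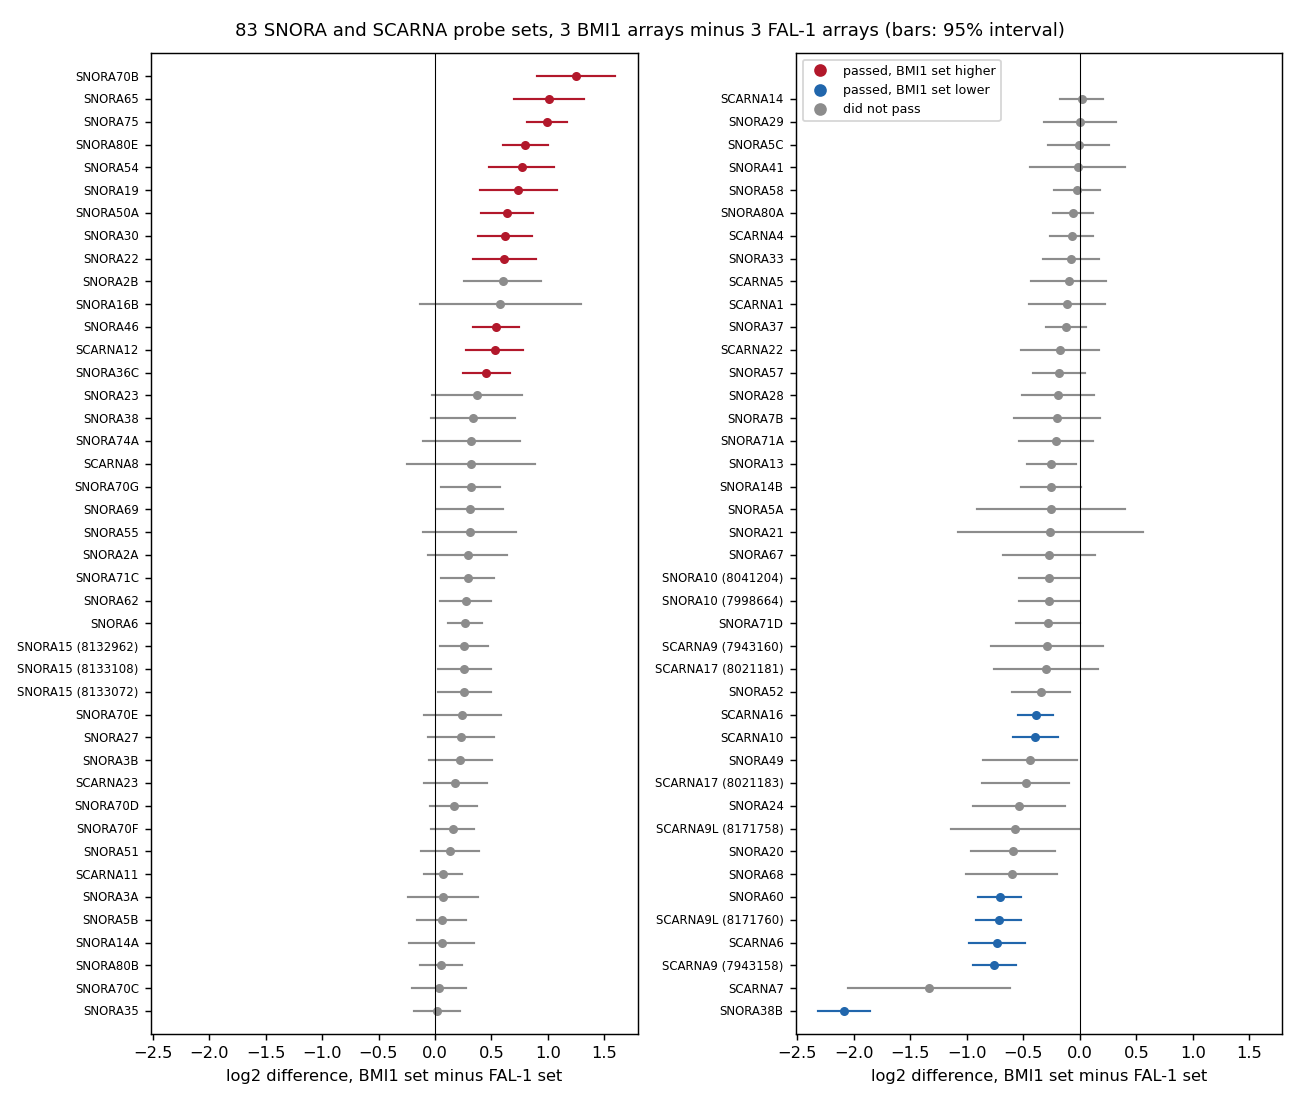
Log2 difference of each of the 83 probe sets, mean of the 3 BMI1 arrays minus mean of the 3 FAL-1 arrays, ordered by size, with the 95% interval of the limma fit as bars and the probe set number where a symbol has several. The 12 members that passed with the BMI1 set higher are at the top left in red, and the 7 that passed with it lower are in blue on the right, with SNORA38B farthest out.

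SNORA38B, an H/ACA RNA inside NOL11, gave the largest difference of any member. It read 7.54 and 7.65 with the BMI1 hairpins and 7.61 in the BMI1 control, against 9.68 and 9.54 with the FAL-1 hairpins and 9.85 in the FAL-1 control. The 3 BMI1 arrays lay close together and below all 3 FAL-1 arrays, a 4.25-fold difference (log2 -2.09, SE 0.09, limma adjusted p = 0.0011). Its near namesake SNORA38, inside PRRC2A, did not pass and differed by 0.34 the other way (limma adjusted p = 0.303).

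SNORA70B, a copy of the U70 RNA inside USP34, read 6.71 and 6.35 with the BMI1 hairpins and 6.91 in their control, against 5.40 and 5.44 with the FAL-1 hairpins and 5.38 in theirs. The FAL-1 arrays were almost level and every BMI1 array was higher, by 1.25 in the mean (SE 0.14, limma adjusted p = 0.0062). The FAL-1 values are near the lowest average of any member, 5.10, and below the median of all probe sets, 7.03. The size of this difference is uncertain at so low a level. The 6 members of the SNORA70 family had differences between 0.03 and 1.25, all on the same side, but SNORA70B alone passed. Near-identical copies can share probe signal, so values within the SNORA70 family, as within SNORA38, SNORA71, SNORA80 and SCARNA9, are uncertain as to which copy they read.

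SNORA65, also called U65 and held by the ribosomal protein gene RPL12, read 8.999 and 9.07 with the BMI1 hairpins and 8.68 in their control, against 8.03, 7.75 and 7.94 in the FAL-1 set (difference 1.01, SE 0.13, limma adjusted p = 0.0087). SNORA75, also called U23 and held by the nucleolin gene NCL, read 9.32, 9.26 and 9.40 in the BMI1 set, against 8.27, 8.33 and 8.40 in the FAL-1 set (difference 0.99, SE 0.07, limma adjusted p = 0.0021). In both, the lowest BMI1 array was above the highest FAL-1 array, and the hairpin and control arrays of a set lay together. SNORA80E, earlier named SNORA42 and held by KHDC4, read 8.85, 8.95 and 8.71 in the BMI1 set, against 7.98, 8.03 and 8.09 in the FAL-1 set (difference 0.80, limma adjusted p = 0.0047).

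The other 8 members that were higher in the BMI1 set differed by less. SNORA54 inside NAP1L4 had a difference of 0.77, SNORA19 inside EIF3A 0.74, SNORA30 inside SRCAP 0.62 and SNORA22 0.61. SNORA50A and SNORA46, which share the host CNOT1, differed by 0.64 and 0.54, and SNORA36C inside AAK1 by 0.45. The FAL-1 arrays of SNORA19 and SNORA36C averaged 5.78 and 5.62, also low on this array. SCARNA12 inside PHB2, a mixed guide for the U5 small nuclear RNA, was the only SCARNA member to pass with the BMI1 set higher. It read 11.40, 11.55 and 11.36 in the BMI1 set, against 10.91, 10.75 and 11.07 in the FAL-1 set (difference 0.53, SE 0.10, limma adjusted p = 0.036).

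Lower in the BMI1 set, after SNORA38B, came mainly Cajal body RNAs. One of the probe sets of SCARNA9 (7943158), a C/D guide for the U2 small nuclear RNA, read 6.35, 6.16 and 6.30 in the BMI1 set, against 7.01, 7.10 and 6.97 in the FAL-1 set (difference -0.76, limma adjusted p = 0.0047). One of SCARNA9L (8171760), a copy inside EIF1AX, read 6.42, 6.34 and 6.27, against 7.09, 6.94 and 7.16 (difference -0.72, limma adjusted p = 0.0063). The sets did not overlap in either, but the copies resemble each other in sequence and are not separate evidence. The remaining probe set of SCARNA9 (7943160) differed by -0.29 and that of SCARNA9L (8171758) by -0.58, and neither passed.

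SCARNA6, a mixed guide inside ATG16L1, read 6.97, 6.94 and 6.86 in the BMI1 set, against 7.55, 7.86 and 7.55 in the FAL-1 set (difference -0.73, limma adjusted p = 0.012). SNORA60 inside SNHG11 was lower by 0.71 in the BMI1 set, with FAL-1 arrays at 7.45, 7.42 and 7.42. SCARNA10, a mixed guide for U5, and SCARNA16 both had a difference of -0.39, the smallest among the members that passed. SCARNA7, a C/D guide inside KPNA4, had the second largest difference of all members and missed the threshold. It read 8.91, 8.24 and 7.89 in the BMI1 set, against 9.47, 10.10 and 9.48 in the FAL-1 set (difference -1.34, SE 0.30, limma adjusted p = 0.052), with no overlap but a wide spread in both sets.

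By class, 11 of 64 SNORA probe sets passed with the BMI1 set higher and 2 with it lower, with a median difference of 0.10. Of 19 SCARNA probe sets, 1 passed with it higher and 5 with it lower, with a median of -0.29. That contrast between the classes was not tested. Members that passed were found among bright and dim probe sets: 12 of 51 in the brighter part of the array, where 9.20% of all probe sets passed, and 7 of 32 in the dimmer part, where 4.67% passed. Within each set the members' values correlated at 0.987 to 0.996 between arrays, and between sets at 0.935 to 0.960. Over all probe sets the same correlations were 0.985 to 0.995 and 0.973 to 0.987. These are descriptions across probe sets, which are not independent replicates.

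For all 19 members that passed, which were chosen by that difference, the difference between the sets was larger than the change with either knockdown. The largest of those changes, SNORA70B with the BMI1 hairpins, was -0.38. Of the 19, 8 passed under every alternative processing that included them and in every fit that left out 1 array: SNORA38B, SNORA60, SNORA65, SNORA70B, SNORA75, SNORA80E, SCARNA9 (7943158) and SCARNA9L (8171760). The last 2 were included in 15 alternatives, the others in 17 or 18. With 1 value per symbol, the brightest probe set or the mean, those 2 probe sets were not tested by themselves. Each way 17 of 77 symbols passed (22.1%, against 7.01%), 12 higher and 5 lower in place of 7. Without FAL-1 hairpin 1, 9 members passed, where 2.66% of all probe sets did, without the BMI1 control 10, where 3.95% did, and without the FAL-1 control 11, where 4.10% did. With the position in the set (hairpin 1, hairpin 2, control) as a block, 15 members passed (18.1%, against 7.34%), and the calls of SCARNA10, SCARNA12, SNORA19, SNORA22 and SNORA36C were lost. After median centring of the arrays, which makes their medians equal, the split was 8 higher and 9 lower, in place of 12 higher and 7 lower.

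**Figure D2:**
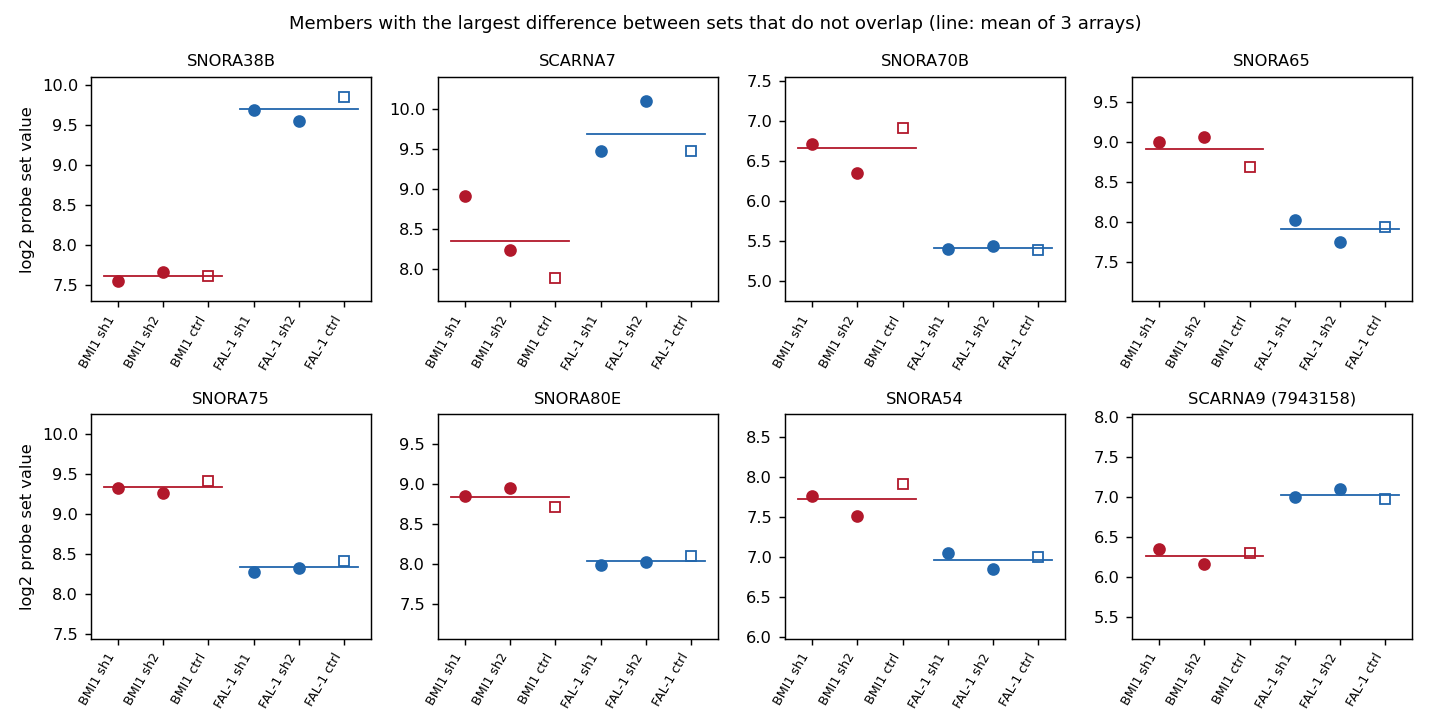
Log2 value on each of the 6 arrays for the 8 members with the largest difference among those whose sets do not overlap. Red marks the BMI1 set and blue the FAL-1 set, filled circles are hairpins (sh1, sh2), open squares are controls (ctrl), lines are means of 3 arrays, and every panel spans the same log2 range. In each panel the sets are apart, and the widest spread is in SCARNA7, whose BMI1 arrays lie between 7.89 and 8.91.

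Whether the genes that hold these RNAs moved with them was examined next. RefSeq places 75 of the 83 members inside 1 other gene and 8 inside 2, for which no host was taken. Its table used here gives no strand, so a host on the opposite strand was not told apart. A host with a probe set of its own was measured for 63 members, which gave 48 host genes, and 10 hosts had none. For 16 of the 19 members that passed, such a host was measured, and none of these 15 hosts passed (smallest limma adjusted p = 0.122, for NOL11). With 6.93% of all probe sets passing, none of 15 is near the background. The members were chosen by passing and the hosts were not, which favours a smaller difference in the hosts. Among all 48 hosts, 2 passed (4.17%, against 6.93% of all probe sets), both lower in the BMI1 set: the ribosomal protein gene RPL27A (-0.46) and the translation factor gene EEF1B2 (-0.45). Their members SNORA3A, SNORA3B and SNORA41 differed by 0.07, 0.22 and -0.02 and did not pass.

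NOL11, which encodes a nucleolar protein of ribosome assembly, read 10.78, 10.58 and 10.79 in the BMI1 set, against 11.04, 11.05 and 10.92 in the FAL-1 set. Its BMI1 arrays all lay below its FAL-1 arrays, as for SNORA38B, with a difference of -0.29 beside -2.09. NCL read 12.18, 12.21 and 12.18 in the BMI1 set, against 12.17, 12.15 and 12.33 in the FAL-1 set, so the arrays overlap where those of SNORA75 do not. RPL12 differed by 0.04 beside 1.01 for SNORA65, and USP34 by 0.25 beside 1.25 for SNORA70B. The USP34 arrays did not overlap either, at 11.16, 11.02 and 11.07 in the BMI1 set, against 10.86, 10.69 and 10.96 in the FAL-1 set. EIF3A, a translation initiation factor, differed by -0.43 where SNORA19 differed by 0.74.

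Over the 16 members the host differences ran between -0.43 and 0.25, and 7 had the sign of the member. Across the 63 members, the difference of member and host had Pearson r = 0.04 and Spearman rho = -0.10, as a description, since members can share a host and all come from the same 6 arrays. For the knockdown changes of member and host, Pearson r was 0.26 with BMI1 and 0.23 with FAL-1, also as a description.

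**Figure D3:**
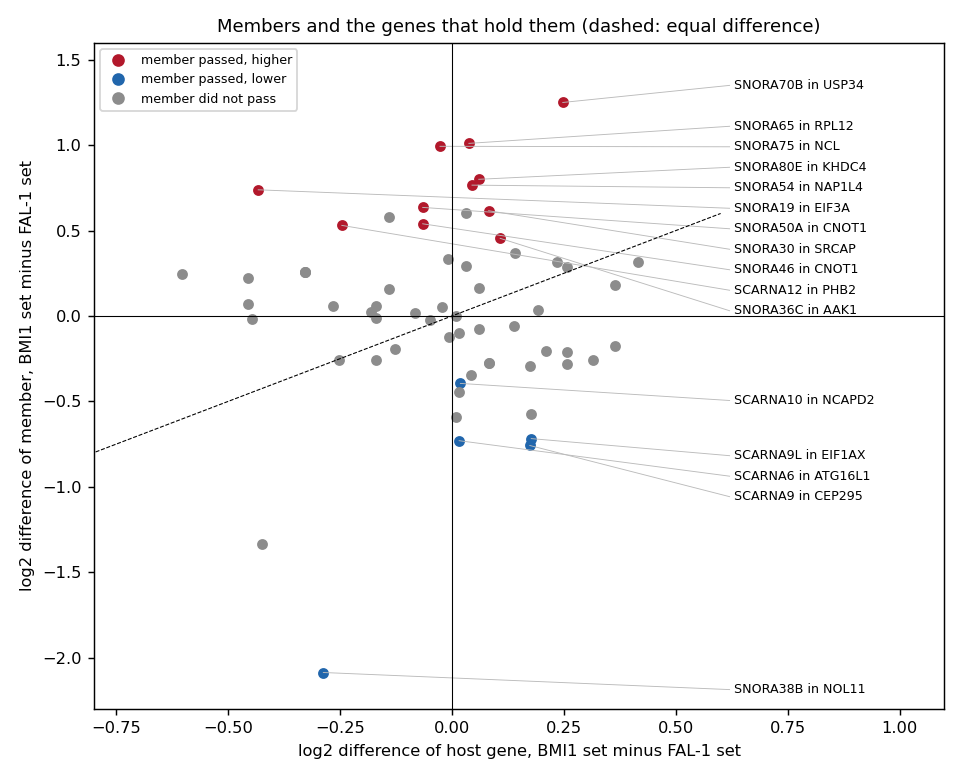
Log2 difference between the BMI1 and the FAL-1 set for each host gene (horizontal) and for the member it holds (vertical), for the 63 members with a measured host. Points of members that passed spread vertically between -2.09 and 1.25, while their hosts stay between -0.43 and 0.25, away from the dashed line of equal difference. Those members were chosen by this difference and their hosts were not, which favours a wider spread of the members.

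Members inside the same host did not always have a like difference. KHDC4 holds SNORA80E (0.80) and SCARNA4 (-0.07), and the SNORA80E minus SCARNA4 value was 0.97, 1.28 and 0.91 in the BMI1 set, against 0.18, 0.14 and 0.21 in the FAL-1 set. ATG16L1 holds SCARNA6 (-0.73) and SCARNA5 (-0.10), and the SCARNA5 minus SCARNA6 value was 0.95, 0.85 and 0.82 in the BMI1 set, against 0.09, 0.06 and 0.58 in the FAL-1 set. In both hosts the 2 RNAs were apart between the sets without overlap (exact permutation test, two-sided p = 0.1, the smallest possible). SNORA80E and SCARNA6 had been chosen by passing between the same sets on the same arrays. That p therefore cannot show a difference between the 2 RNAs of a host, and the values are given as a description. TCP1, a chaperonin subunit gene, holds SNORA20 (-0.59) and SNORA29 (-0.0009), again without overlap. In SNHG17 the 3 copies SNORA71C, SNORA71A and SNORA71D differed by 0.29, -0.21 and -0.28. In the other 5 hosts with several members the values overlapped, and in CNOT1 both SNORA50A and SNORA46 passed in the same direction.

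The 250 bases before the start of NOL11 and of the shared hosts KHDC4 and ATG16L1 are shown because these genes hold members that differed from the host or from each other. Whether the members are transcribed from these promoters was not tested. They are from RefSeq on GRCh38.p14, on the gene's strand. Capitals mark matches to GGGCGG on either strand, the GC box.
NOL11 (chr17:67717686-67717935, plus strand): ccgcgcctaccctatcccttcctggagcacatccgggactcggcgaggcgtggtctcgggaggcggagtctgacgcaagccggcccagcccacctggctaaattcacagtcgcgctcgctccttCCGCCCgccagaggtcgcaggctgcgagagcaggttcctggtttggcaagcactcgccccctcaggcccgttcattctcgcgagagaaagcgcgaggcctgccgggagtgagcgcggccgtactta
KHDC4 (chr1:155934414-155934663, minus strand): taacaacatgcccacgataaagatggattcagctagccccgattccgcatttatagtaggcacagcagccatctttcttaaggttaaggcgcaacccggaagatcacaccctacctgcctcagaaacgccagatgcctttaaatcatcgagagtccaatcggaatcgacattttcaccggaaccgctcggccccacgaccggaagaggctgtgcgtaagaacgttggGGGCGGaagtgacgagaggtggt
ATG16L1 (chr2:233251423-233251672, plus strand): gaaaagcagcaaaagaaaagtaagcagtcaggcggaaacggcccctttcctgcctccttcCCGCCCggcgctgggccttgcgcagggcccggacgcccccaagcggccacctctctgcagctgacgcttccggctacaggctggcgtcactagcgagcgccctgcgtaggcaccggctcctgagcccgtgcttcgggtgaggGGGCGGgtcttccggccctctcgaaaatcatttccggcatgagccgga
The GC box has 1 match in NOL11, 1 in KHDC4 and 2 in ATG16L1, and is held by 42.6% of 35116 such windows. A match is a description of the letters and says nothing about a factor.

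With BMI1 knockdown no member passed limma's test against the BMI1 control (0 of 83, smallest adjusted p = 0.9999), nor did any of the 33252 probe sets (0%). At an unadjusted p under 0.05 there were 6 members (7.23%), 5 higher and 1 lower, against 3.14% of all probe sets (1.56% higher and 1.58% lower). In this fit of 4 group means with 2 residual degrees of freedom, a lone control is taken to vary as the hairpins do. The 95% interval of a member's change extended a median of 0.44 to either side. The probe set of BMI1 itself did not pass either, so 0 members passing does not show that none changed. Both hairpins lay above the control for 35 members (42.2%, against 35.5% of all probe sets) and below it for 19 (22.9%, against 29.1%). The hairpins were not alike: hairpin 1 lay above the control for 60 members (52.8% of all probe sets) with a median change of 0.14, and hairpin 2 for 39 (53.7% of all) with a median of -0.03.

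SCARNA9 (probe set 7943160) read 8.73 and 8.60 with the BMI1 hairpins, against 8.01 in the BMI1 control, and was the only member beyond 1.5-fold with both hairpins (background 0.502% higher and 0.698% lower). Its mean change was 0.66 ± 0.09 (SD, n = 2 hairpins). The other SCARNA9 probe set (7943158) did not share this rise, with changes of 0.05 and -0.14 with the same hairpins. SCARNA17 (8021181), a C/D guide for the U4 and U12 small nuclear RNAs, read 9.44 and 9.62 with the BMI1 hairpins, against 8.93 in the control. SNORA68 read 11.36 and 11.24 with the BMI1 hairpins, against 10.77, and SNORA71D read 12.62 and 12.57, against 12.22.

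SNORA71A, the U71 copy beside it in SNHG17, read 10.13 and 10.00 with the BMI1 hairpins, against 9.68 in the control. SNORA23, held by IPO7, was the 1 member of the 6 that was lower, at 12.29 and 12.32 with the BMI1 hairpins, against 12.82. In all 6 the BMI1 control was the highest or the lowest of the 6 arrays, as it was for 32 of 83 members (38.6%, against 29.4% of all probe sets). Set against the FAL-1 control instead, the BMI1 hairpins' change was 0.08 for SCARNA9 (7943160), 0.06 for SCARNA17 (8021181), -0.41 for SNORA68, -0.19 for SNORA71D and 0.29 for SNORA23. Both BMI1 hairpins of SNORA71A also lay below the FAL-1 control, which read 10.28.

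Other members with both BMI1 hairpins well to one side of the control did not pass either. SNORA24, which guides modification of the small subunit ribosomal RNA and is held by SNHG8, changed by 0.50, SNORA49 by 0.47 and SCARNA7 by 0.68, where the hairpins gave 1.02 and 0.35. SNORA2A changed by -0.40, SNORA27 by -0.33 and SNORA3B by -0.31. SNORA54 changed by -0.28, SCARNA14 by -0.17 and SNORA65 by 0.35.

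With FAL-1 knockdown no member passed (smallest limma adjusted p = 0.99995), and the unadjusted p was under 0.05 for 0 members, against 3.14% of all probe sets. Both hairpins lay above the FAL-1 control for 25 members (30.1%, against 36.5%) and below it for 28 (33.7%, against 27.7%), and none was beyond 1.5-fold with both (0.496% of all probe sets higher and 0.553% lower). SCARNA8, a guide for U2 inside HAUS6, read 7.29 and 6.91 with the FAL-1 hairpins, against 7.65 in the FAL-1 control. It also read 7.56 and 7.29 with the BMI1 hairpins, against 7.94 in the BMI1 control. SCARNA8 was thus below its control with all 4 hairpins, with mean changes of -0.51 for BMI1 and -0.55 for FAL-1, and passed in neither comparison. The brighter probe set of its host HAUS6 changed in the same direction, by -0.62 for BMI1 and -1.01 for FAL-1.

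SCARNA9L (8171758) read 8.38 and 8.08 with the FAL-1 hairpins, against 8.79 in the control, and SCARNA5 read 7.64 and 7.92, against 8.13. SNORA16B changed by -0.41 with FAL-1 knockdown, SCARNA22, the ACA11 RNA inside NSD2, by -0.30, SNORA14B by -0.29 and SNORA62, the E2 RNA inside RPSA, by -0.27. On the other side were SNORA74A, the U19 RNA (0.36), SNORA20 (0.25), SCARNA17 (8021181, 0.24), SCARNA9 (7943160, 0.23), SNORA29 (0.22), SNORA51 (0.21), SCARNA14 (0.12) and SNORA80A (0.11). Of the 16 members chosen in the same way for FAL-1, 8 had the other sign against the BMI1 control. The FAL-1 hairpins disagreed most for SNORA21, at 9.91 and 8.49 beside 9.34 in the control, and SNORA5A, at 8.72 and 9.81 beside 9.34, both chosen after their values were seen.

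**Figure D4:**
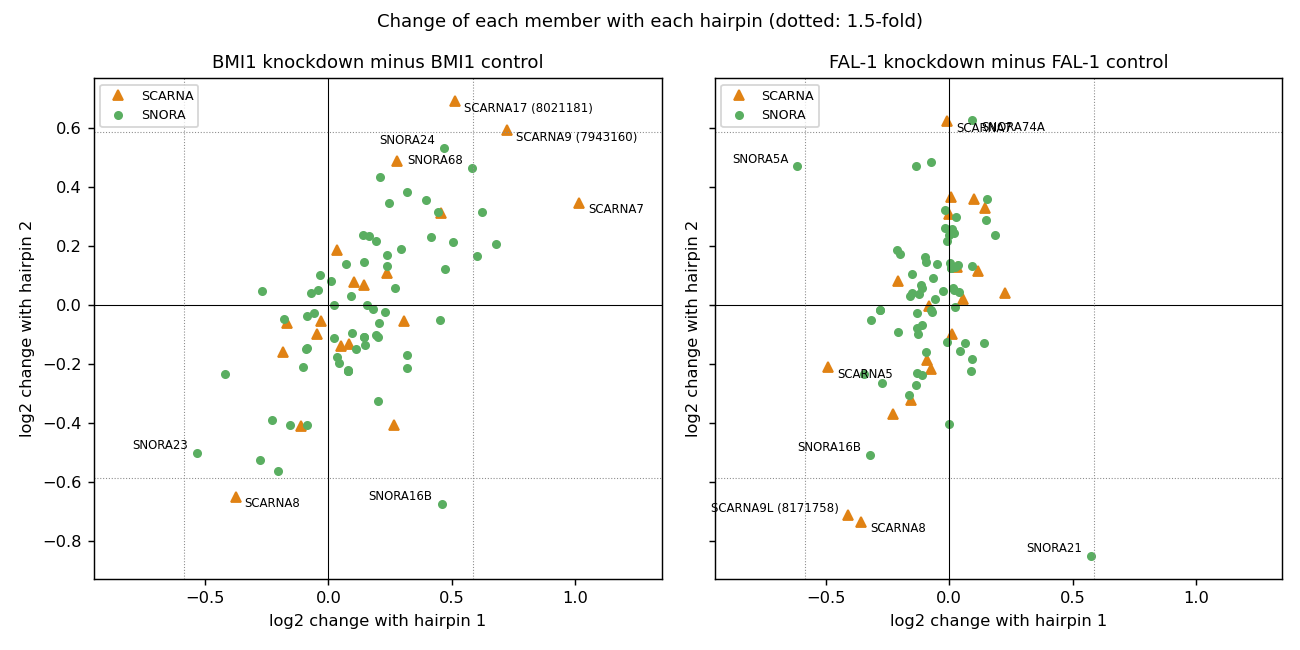
Log2 change of each member against its own control with hairpin 1 (horizontal) and hairpin 2 (vertical), for BMI1 on the left and FAL-1 on the right. Triangles are SCARNA and circles SNORA probe sets, and dotted lines mark 1.5-fold. SCARNA9 (7943160) alone lies beyond 1.5-fold with both hairpins, and SNORA21 lies high with FAL-1 hairpin 1 and low with hairpin 2.

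Over both knockdowns, all 4 hairpins lay above their control for 10 members, against 17.2% of all probe sets, and below it for 6, against 12.6%. The average of both changes passed for 0 members (smallest limma adjusted p = 0.898), with 3 at an unadjusted p under 0.05, namely SCARNA8, SCARNA9 (7943160) and SCARNA17 (8021181), against 5.36% of all probe sets. The difference between the knockdowns also passed for 0, with SNORA23 and SNORA71A at an unadjusted limma p under 0.05 (1.25% of all probe sets). Each knockdown result rests on 1 control array.

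A list of 12 genes for H/ACA core and assembly proteins was read, all measured. It holds DKC1, NHP2, NOP10, GAR1, NAF1 and SHQ1. The rest, RUVBL1, RUVBL2, PIH1D1, NUFIP1, NOLC1 and TCOF1, are less specific to H/ACA RNAs. None passed in any comparison. With BMI1 knockdown 11 of 12 were below the control with both hairpins and 0 above it, with a median change of -0.21 (0.01 over all probe sets), and with FAL-1 knockdown 9 were below with both and 0 above, with a median of -0.19 (0.02 over all). The background for both hairpins below is 29.1% for BMI1 and 27.7% for FAL-1. The pseudouridine synthase DKC1 read 9.93 and 10.00 with the BMI1 hairpins, against 10.12, and 10.05 and 9.88 with the FAL-1 hairpins, against 10.37. The assembly factor NAF1 changed by -0.42 with BMI1 knockdown and by -0.40 with FAL-1 knockdown.

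The core protein GAR1 changed by -0.20 and -0.46, whereas NOP10 changed by -0.03 and -0.01. Between the sets this list had a median difference of -0.09, and none passed. Telomerase RNA, TERC, is itself an H/ACA RNA and was not a member by name. It read 8.91 and 9.06 with the BMI1 hairpins, against 8.47 in the BMI1 control (change 0.51), and 8.34 and 8.48 with the FAL-1 hairpins, against 8.56 in the FAL-1 control. Of 19 listed Cajal body and small nuclear ribonucleoprotein assembly genes, 17 were measured and none passed. Their median change was -0.15 with BMI1 knockdown and 0.04 with FAL-1 knockdown, and the median difference between the sets was -0.07. With BMI1 knockdown 11 of the 17 were below the control with both hairpins and 2 above it, and with FAL-1 knockdown 5 were below and 7 above. Of 5 listed C/D box proteins 2 were measured, and both were below the control with both hairpins in each knockdown (medians -0.20 and -0.26). Of 14 listed genes of intron lariat and end processing 11 were measured. With BMI1 knockdown 3 were below the control with both hairpins and 3 above, and with FAL-1 knockdown 6 were below and 1 above. Values below the control were thus also found outside the H/ACA list. None of these genes passed, and the lists were not compared by a test.

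The contrast between the sets was also measured in other classes of short RNA. Of 115 SNORD probe sets, the C/D small nucleolar RNAs, 11 passed with the BMI1 set higher and 4 with it lower (13.0%). Of 27 RNU probe sets, named for small nuclear RNAs, 3 passed (11.1%), and of 179 for microRNA genes (MIR), 7 passed (3.91%). Differences between these shares were not tested.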

How the data were processed

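Per the labels' protocols, labelled cDNA from A2780 total RNA (culture with 10% serum) was hybridised to Affymetrix arrays, 1 per sample. The authors deposited a single table of log2 values, so judged by their range. RMA, which corrects background, normalizes and summarises probes, is named in the submitters' processing notes, without a version. Joint normalization of both sets is not stated in the sources used here, and the comparison of the sets rests on it. Of 33252 probe sets, 19460 had 1 symbol in the platform annotation, 1754 several, and 12038 were not listed.

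All 33252 probe sets entered limma 3.58.1 (R 4.3.3; lmFit, eBayes, two-sided, Benjamini-Hochberg over all probe sets at 0.05). Each knockdown was set against its own control, with their average and difference, in a fit of 4 group means. The BMI1 set was set against the FAL-1 set in a fit of 2 means with 4 residual degrees of freedom. No filter was applied. The fits were tested on simulated data. Figures used matplotlib 3.10.9 (Python 3.11.15).

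The members, gene lists and tests were chosen with earlier results of these data known. Named members are those that passed, the 8 per direction with the largest smaller-hairpin change in each knockdown, the 8 per direction with the largest non-overlapping difference between the sets, and listed RNAs of known role. Hosts were the genes around a member in RefSeq on GRCh38.p14. Member coordinates are left out because the build of the array design is not stated. All 83 members matched by gene ID.

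Deviations from the set mean, over all probe sets, correlated between the sets at 0.113 for hairpin 1, 0.423 for hairpin 2 and 0.486 for the control. Position in the set therefore served as a block in an alternative, although it also marks hairpin and control.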

Additional observations from a re-analysis of the deposited data

Results flagged for a closer look

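For 18 members both BMI1 hairpins lay on one side of the BMI1 control and both FAL-1 hairpins on the other side of the FAL-1 control. The share of all probe sets with such opposite directions was not counted, so the number is not read as a result about the members. limma's test of the difference between the knockdowns passed for none of these 18 members (adjusted p of at least 0.99995), so the opposite directions are given as values. Each value is the BMI1 change minus the FAL-1 change on the log2 scale. It was positive for 12 members: SNORA71A (0.58), SCARNA5 (0.52), SNORA7B (0.50), SNORA71D (0.42), SNORA22 (0.40), SNORA71C (0.38), SCARNA12 (0.35), SNORA62 (0.31), SNORA80E (0.28), SCARNA9L (8171760, 0.25), SNORA70C (0.25) and SNORA69 (0.21). It was negative for 6: SNORA23 (-0.65), SNORA29 (-0.47), SNORA70B (-0.42), SCARNA14 (-0.29), SCARNA10 (-0.21) and SCARNA11 (-0.15). The 3 measured SNORA71 copies in SNHG17 are among them, all above the BMI1 control and below the FAL-1 control, and they share sequence and host.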

How the results depend on the processing

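No result that passed changed direction. In the comparison of the sets, 19 members passed, 9 to 15 when 1 array was left out, 15 with the position in the set as a replicate block, 8 in the fit of 4 groups, which has fewer residual degrees of freedom (9.64%, against 2.51% of all probe sets), and 11 of 51 among the brighter probe sets (21.6%, against 8.47%). Quantile normalization, cyclic loess, median centring and a term for control against hairpin each gave 17. The median difference was 0.02 over all members and -0.18 over those brighter ones. Members beyond 1.5-fold with both BMI1 hairpins numbered 1, against 10 with the FAL-1 control, 2 with the mean of both controls, 4 and 5 with 1 hairpin left out, and 0 after median centring, with probe sets averaged per symbol, or at 2-fold. For FAL-1 they numbered 0, against 22 with the BMI1 control, 3 with the mean of both controls, and 5 and 1 with 1 hairpin left out. The share of all probe sets beyond 1.5-fold was not counted under these alternatives. Their counts are therefore not read as a result about the members. With the controls exchanged, the contrast for the difference between the knockdowns passed for 5 members in place of 0, and the share of all probe sets is not given. That contrast then adds the difference between the 2 controls to the difference between the hairpin arrays. It thus compares the BMI1 set with the FAL-1 set and does not compare the knockdown changes. The knockdown comparisons kept 0 passing members with the hairpin number as a replicate block. Same-numbered hairpins had deviations that correlated at 0.256 between the targets, but their numbers name hairpins and pair nothing. A control cannot be left out of its own knockdown comparison without using the other control, so that gave no further value. With 3 arrays a set, the 95% interval reached a median of 0.27 to either side between the sets and 0.44 for the knockdowns, and a call after adjustment over all probe sets took more than that: the smallest difference that passed between the sets was 0.39 in size, and no knockdown change passed. The cause of the shifts not explained here was not tested.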
